A study of Bos taurus with 16 samples.

Results

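Imprinted growth genes are 10 of the 34109 genes in the deposited tables, namely H19, MEG3, DLK1, PEG3, PEG10, CDKN1C, GRB10, NNAT, MEST and PLAGL1. They were chosen by name for their known roles in fetal growth, and all 10 were found by gene symbol and NCBI gene ID. The gene IDs are 100126192 for H19, 100335527 for MEG3, 281117 for DLK1, 444864 for PEG3, 618138 for PEG10, 510972 for CDKN1C, 407210 for GRB10, 353114 for NNAT, 404180 for MEST and 539761 for PLAGL1. RNA had been sequenced from the round muscle of the hind leg and from the sirloin muscle of 8 newborn male Hanwoo calves, a Korean beef breed of cattle. The mothers of 4 control calves were fed 100% of their nutritional requirement through mid to late pregnancy, and the mothers of 4 treated calves 150%. Both muscles were taken at birth, before the calves had colostrum, which gives 16 libraries in 4 groups of 4. No genotype, drug or other treatment was applied, and calves are named by diet and replicate number.

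An imprinted gene is transcribed mainly from the copy inherited from a single parent, a choice carried by DNA methylation at control regions that is laid down in the germ line. Many genes expressed from the father's copy, such as IGF2, DLK1, PEG3, MEST and PLAGL1, are known to promote fetal growth, while genes expressed from the mother's copy, such as H19, CDKN1C and in most tissues GRB10, are known to restrain it. Skeletal muscle is a classical site of their action: H19 and IGF2 are abundant in fetal and newborn muscle, and a change near DLK1 and MEG3 causes the heavy hindquarters of callipyge sheep. Total counts do not separate the parental copies, so imprinting itself was not measured, only the summed output of both copies. In whole tissue, fewer cells of a type and less RNA per cell cannot be told apart.

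Library totals ran from 44473011 to 72446933 counts in round and from 44863173 to 72165291 in sirloin muscle. Skeletal muscle markers were high in all 16 libraries, with 8 genes that summed to between 45946 and 88894 units of length-corrected abundance (TPM). A pair of libraries stood apart. The sirloin library of treated calf 4 carried 3962 TPM of 6 adipocyte genes against 25.1 to 190 in the other 15 libraries, among them ADIPOQ at 678, FABP4 at 2825 and PLIN1 at 160.0 TPM, which stood at no more than 0.549, 3.78 and 1.35 TPM in the other 7 sirloin libraries. The round library of control calf 2 carried 2175 TPM of 7 fibroblast genes against at most 749 in the other 15, and 14.9 TPM of 4 tendon genes against at most 2.99. Both libraries of control calf 2 summed to 1000000 TPM, whereas the other libraries summed to between 999756 and 999858.

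Levels between genes are given as the authors' TPM, which corrects for transcript length, and the round and sirloin values come from tables normalized separately. H19 stood far above the rest, with a mean of 4827 TPM ± 2684 (SD, n = 8) in round and 8415 ± 5127 in sirloin muscle, which ranked 32 and 19 among all listed genes. It took between 0.285% and 2.38% of all counts of a library. MEG3 followed at 61.2 TPM ± 23.5 in round and 77.7 ± 32.4 in sirloin muscle, then DLK1 at 35.6 ± 18.7 and 38.6 ± 22.6, and PEG10 at 25.7 ± 3.87 and 23.6 ± 7.23. The middle of the order held GRB10 at 14.3 and 17.7 TPM, CDKN1C at 13.1 and 21.7 and PLAGL1 at 12.2 and 12.5, and the low end held MEST at 7.90 and 7.07, PEG3 at 6.02 and 6.98 and NNAT at 3.00 and 4.18 TPM in round and sirloin muscle.

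Neighbours in this order often changed places from library to library. H19 was above MEG3 in 8 of 8 libraries of each muscle, and PEG10 was above the next gene in 8 of 8 round and 7 of 8 sirloin libraries. GRB10 and CDKN1C, CDKN1C and PLAGL1 in round, and MEST and PEG3 in sirloin muscle were not separated, since the gene with the higher mean was higher in 3, 4 and 4 of 8 libraries. The mean of CDKN1C exceeded that of GRB10 in sirloin muscle although it was higher in 2 of 8 libraries, because 1 library at 83.2 TPM raised it.

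**Figure D1:**
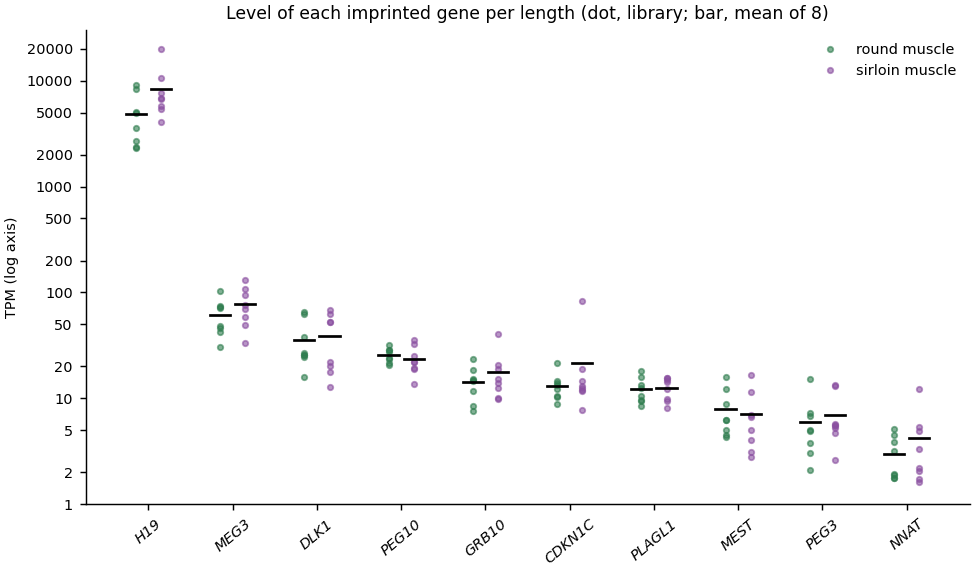
TPM of the 10 imprinted genes on a log axis, ordered by their mean in round muscle, with 1 dot per library and a bar for the mean of 8 calves in each muscle. H19 lies between 2340 and 20168 TPM, well over any other member, and CDKN1C in sirloin muscle has 1 dot at 83.2 TPM far from its other 7.

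The noncoding RNAs come first. H19 lies beside IGF2 and is transcribed from the mother's copy, and it also gives rise to a microRNA. On the CPM scale, counts relative to library size after TMM scaling, H19 measured 3268, 2669.9, 3541 and 12710.1 in round muscle of control calves 1 to 4, and 4468, 9269, 6081 and 6381 in treated calves 1 to 4. Sirloin muscle of the same calves gave 9284, 4849, 8691 and 24392 CPM for the controls and 8599.6, 5819, 12011 and 6548 CPM for the treated calves. Control calf 4 was the highest of all 8 calves in both muscles, and the diets overlapped. The log2 fold change, treated over control, was 0.26 (SE 0.49) in round and -0.52 (SE 0.44) in sirloin muscle, neither below the adjusted threshold (edgeR, adjusted p = 0.977 and 0.906). With each calf left out in turn, the difference ran from -0.01 without control calf 2 to 1.07 (SE 0.34) without control calf 4 in round muscle, and from -0.78 to 0.11 without the same calves in sirloin muscle, so the sign turned in both.

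MEG3, the maternally expressed RNA of the DLK1 domain, is known as a growth suppressor. It measured 63.8, 79.2, 38.6 and 93.3 CPM in round muscle of the controls and 50.6, 108, 86.9 and 55.6 CPM in that of the treated calves. Its sirloin values were 98.2, 55.6, 40.7 and 80.9 CPM in the controls and 63.1, 110.1, 141 and 104 CPM in the treated calves. Treated calf 3 was highest and control calf 3 lowest in sirloin muscle, and the ranges of the diets overlapped in both muscles. The differences were 0.15 (SE 0.32) in round and 0.60 (SE 0.31) in sirloin muscle on the log2 scale (edgeR, adjusted p = 0.982 and 0.876). Leaving out single calves moved them between -0.09 without treated calf 2 and 0.34 without control calf 4 in round, and between 0.42 without treated calf 3 and 0.82 without control calf 1 in sirloin muscle.

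DLK1, a membrane protein of the Notch ligand type, is known to hold back the maturation of fat cells and to promote muscle mass in sheep. It measured 24.4, 49.1, 14.0 and 23.3 CPM in round muscle of the controls and 51.9, 27.9, 21.0 and 20.3 CPM in the treated calves. The sirloin values were 20.0, 42.2, 11.1 and 14.2 CPM in the controls and 47.6, 49.3, 15.1 and 39.0 CPM in the treated calves. Control calf 2 was the highest control calf in both muscles. Its round library is the one rich in fibroblast and tendon genes, and its sirloin library had the highest tendon sum of that muscle. The log2 fold change was 0.16 (SE 0.41) in round and 0.78 (SE 0.45) in sirloin muscle (edgeR, adjusted p = 0.987 and 0.876). It ran from -0.25 without treated calf 1 to 0.55 without control calf 2 in round muscle, and from 0.57 without control calf 3 to 1.31 without control calf 2 in sirloin muscle.

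The growth inhibitors CDKN1C and GRB10 follow. CDKN1C, which blocks cyclin-dependent kinases and takes part in cell cycle exit of muscle precursors, was even across most libraries: 13.5, 14.0, 12.5 and 18.5 CPM in round muscle of the controls and 20.8, 13.6, 9.80 and 14.5 CPM in the treated calves. In sirloin muscle it measured 16.6, 13.0, 14.3 and 14.5 CPM in the controls and 19.5, 14.3, 7.37 and 91.0 CPM in the treated calves. The value of 91.0 CPM is from treated calf 4, the library rich in adipocyte genes, whereas the round library of the same calf was unremarkable at 14.5 CPM with 58.3 TPM of adipocyte genes. The fitted difference was 0.03 (SE 0.28) in round and 1.16 (SE 0.62) in sirloin muscle (edgeR, adjusted p = 0.996 and 0.876), and it was -0.08 (SE 0.31) in sirloin muscle without that calf. Without any other single calf it lay between -0.20 and 0.17 in round muscle and reached up to 1.49, without treated calf 3, in sirloin muscle.

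GRB10 encodes an adaptor that binds the insulin and IGF1 receptors and dampens their signal. Its round values were 24.3, 31.3, 45.9 and 45.3 CPM in the controls and 53.5, 56.9, 23.4 and 45.0 CPM in the treated calves. In sirloin muscle they were 30.8, 33.4, 52.5 and 38.2 CPM in the controls and 54.0, 95.7, 40.6 and 26.4 CPM in the treated calves. Treated calf 2 was the highest in both muscles, and the sirloin library of treated calf 4 was the lowest of its muscle. The log2 differences were 0.31 (SE 0.31) and 0.48 (SE 0.36), with adjusted p-values of 0.913 and 0.876 (edgeR). The sirloin difference was 0.06 (SE 0.29) without treated calf 2 and 0.71 (SE 0.31) without treated calf 4, and the round difference lay between 0.16 without treated calf 2 and 0.50 without treated calf 3.

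Of the zinc finger proteins, PLAGL1 is a transcription factor known to act on a network of other imprinted genes, and it was among the steadier members. It measured 17.5, 24.3, 18.9 and 25.5 CPM in round muscle of the controls and 14.4, 26.8, 20.7 and 16.6 CPM in the treated calves. Its sirloin values were 28.4, 16.4, 14.1 and 25.7 CPM in the controls and 14.7, 21.4, 18.9 and 22.3 CPM in the treated calves. Neither diet stood above the other, at -0.11 (SE 0.25) in round and -0.13 (SE 0.26) in sirloin muscle on the log2 scale (edgeR, adjusted p = 0.985 and 1.00). Without single calves the sirloin difference ran from -0.28 without control calf 3 to 0.04 without control calf 1, and the round difference lay between -0.32 without treated calf 2 and 0.00035 without treated calf 1.

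PEG3, a large zinc finger protein known from stress and growth pathways and expressed in muscle stem cells, varied most between calves of a diet in round muscle. It measured 54.5, 18.4, 15.0 and 37.9 CPM in round muscle of the controls and 33.2, 90.5, 25.1 and 46.4 CPM in the treated calves. The sirloin libraries held 42.3, 30.3, 18.1 and 36.9 CPM in the controls and 33.1, 75.7, 31.7 and 82.9 CPM in the treated calves. Treated calf 2 was high and control calf 3 low in both muscles. PEG3 had the smallest p-value of the members in either muscle, with log2 differences of 0.65 (SE 0.47, edgeR adjusted p = 0.864) in round and 0.80 (SE 0.37, edgeR adjusted p = 0.876) in sirloin muscle. The round difference was 0.16 (SE 0.43) without treated calf 2 and 1.05 (SE 0.47) without control calf 1. The sirloin difference lay between 0.56 without treated calf 4 and 0.99 without treated calf 3.

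PEG10 derives from a retrotransposon and is essential for the placenta. In round muscle it was the steadiest member, at 91.2, 103, 100.7 and 104 CPM in the controls and 111, 110.0, 107 and 85.4 CPM in the treated calves. Sirloin values were more scattered, at 94.6, 72.2, 55.5 and 97.2 CPM in the controls and 78.9, 111, 68.5 and 127 CPM in the treated calves. The diets differed by 0.07 (SE 0.20) in round and 0.27 (SE 0.26) in sirloin muscle on the log2 scale (edgeR, adjusted p = 0.988 and 0.920), and without single calves by 0.02 to 0.13 in round and by 0.12, without treated calf 4, to 0.40, without treated calf 3, in sirloin muscle.

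MEST, a membrane protein of the alpha/beta hydrolase fold, is known from mesoderm and from growing fat tissue. It measured 6.52, 19.8, 6.48 and 13.7 CPM in round muscle of the controls and 8.33, 7.61, 6.56 and 16.9 CPM in the treated calves. Sirloin muscle gave 6.29, 15.0, 4.34 and 8.72 CPM in the controls and 6.29, 8.10, 3.51 and 20.5 CPM in the treated calves. The same calves, control calf 2 and treated calf 4, were the highest of their diet in both muscles. The log2 difference was -0.22 (SE 0.42) in round and 0.15 (SE 0.52) in sirloin muscle (edgeR, adjusted p = 0.977 and 1.00). Its sign followed single calves, since it ran from -0.63 without treated calf 4 to 0.13 without control calf 2 in round muscle and from -0.52 to 0.56 without the same calves in sirloin muscle.

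NNAT, a small membrane protein best known from the brain and from calcium handling in secretory cells, had the lowest level and rested on 54 to 571 counts per library. It measured 1.66, 2.60, 2.62 and 1.53 CPM in round muscle of the controls and 3.25, 1.30, 3.83 and 1.30 CPM in the treated calves. In sirloin muscle the controls gave 1.74, 3.95, 1.70 and 2.46 CPM and the treated calves 3.19, 1.08, 1.13 and 8.37 CPM. The highest value again came from treated calf 4, whose round library held one of the lowest. The log2 difference was 0.23 (SE 0.45) in round and 0.47 (SE 0.62) in sirloin muscle (edgeR, adjusted p = 0.980 and 0.981), and -0.45 (SE 0.50) in sirloin muscle without that calf. Without single calves it lay between -0.10, without treated calf 3, and 0.41, without treated calf 2, in round muscle, and reached 0.79 in sirloin muscle without control calf 2. NNAT overlaps BLCAP, MEST overlaps COPG2, PEG3 overlaps APEG3 and PLAGL1 overlaps ZC2HC1B in the RefSeq gene table. Whether counting used strand is not given in the sources used here, so reads shared by such pairs cannot be told apart.

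**Figure D2:**
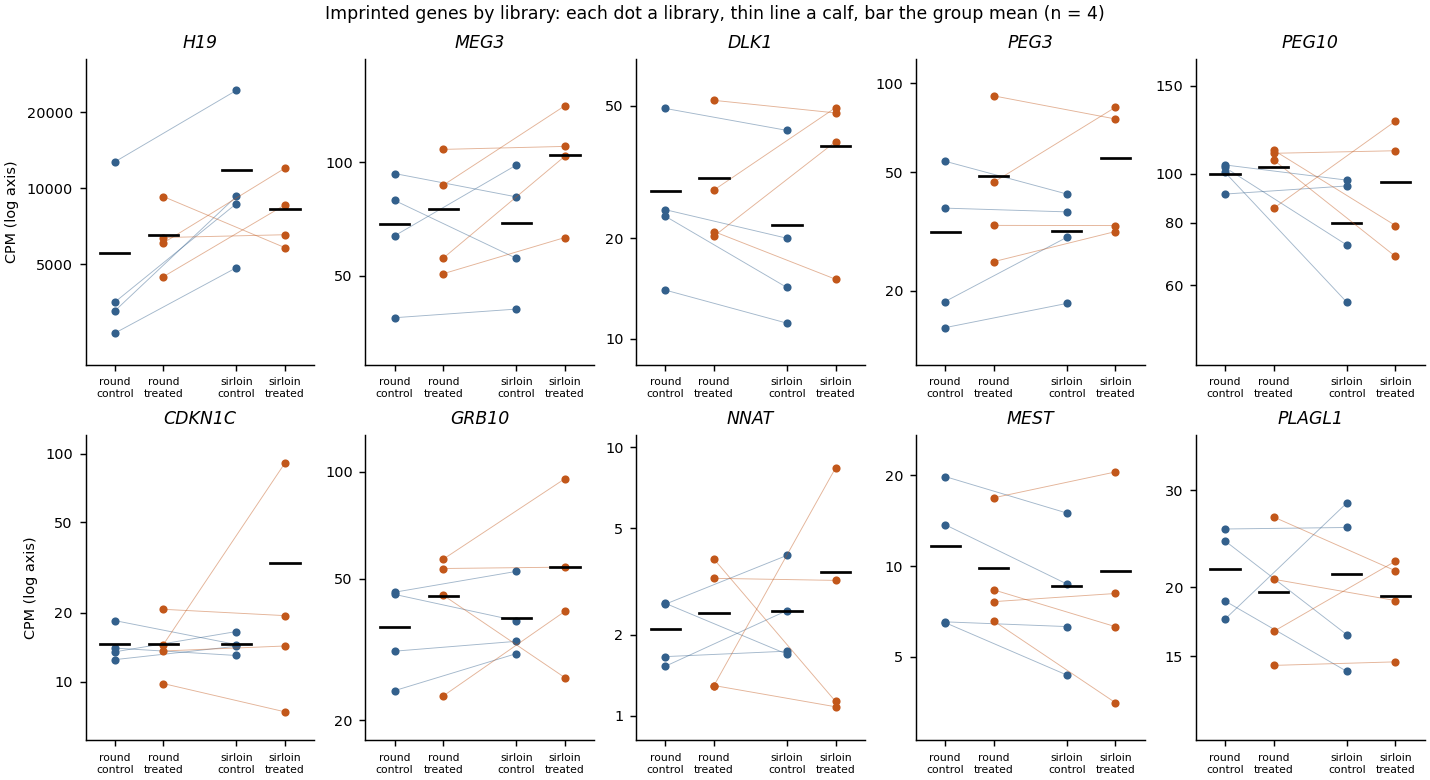
CPM of each imprinted gene on a log axis by muscle and diet, with 1 dot per library, a thin line joining both muscles of a calf and a bar for the mean of 4. Control and treated dots overlap in every panel, H19 of control calf 4 is the highest dot of both muscles, and CDKN1C and NNAT each have 1 sirloin dot, treated calf 4 at 91.0 and 8.37 CPM, above the rest.

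Over the whole set, 0 of 10 members passed an adjusted p of 0.05 for diet in round muscle, where 0.0185% of 21677 genes did (DESeq2, 0 of 10 against 0.208%), and 0 of 10 in sirloin muscle, where 0.00918% of 21776 did (DESeq2, 0 of 10 against 0.0597%). At an unadjusted p under 0.05, 0 of 10 passed in each muscle against 4.41% and 3.91% of all genes tested. The diets overlapped for all 10 members in both muscles, where 1.82% of genes in round and 1.63% in sirloin muscle had no overlap. Fitted differences were above 0 for 8 of 10 members in round muscle, with a median of 0.15 against 0.02 for all genes, and for 8 of 10 in sirloin muscle, with a median of 0.47 against 0.03. Of all genes tested, 51.9% in round and 52.9% in sirloin muscle were above 0. The counts of the members moved with single calves. In round muscle 5 of 10 were above 0 with a median of 0.02 without control calf 3, and the median was 0.03 without treated calf 1 and 0.04 without treated calf 2. In sirloin muscle 5 of 10 were above 0 with a median of 0.02 without treated calf 4, whose sirloin library is the one rich in adipocyte genes, and 7 to 9 of 10 without any other calf.

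Leaving out single calves also brought members to an unadjusted p under 0.05, while the adjusted p-values of all 10 stayed above the threshold (edgeR). In round muscle these were PEG3 without control calf 1, against 5.87% of genes, and H19 without control calf 4, against 3.21%. In sirloin muscle they were DLK1, PEG3 and CDKN1C without treated calf 3 (4.64% of genes), MEG3 and PEG3 without treated calf 1 (4.96%) or control calf 1 (2.92%), DLK1 without control calf 2 (4.8%) and GRB10 without treated calf 4 (3.14%). Without control calf 3, control calf 4 or treated calf 2 they were 0 of 10 in sirloin muscle. With 4 calves a diet, standard errors of 0.20 to 0.62 on the log2 scale leave differences of that order undetected, so the tests do not show that the diets gave equal levels.

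**Figure D3:**
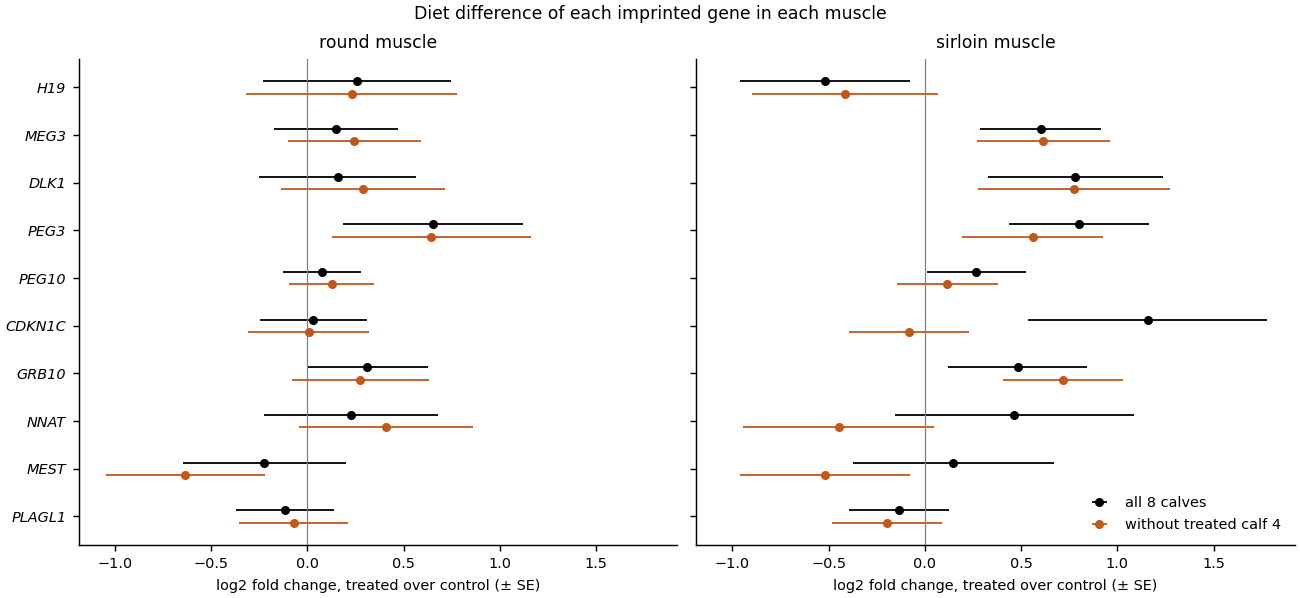
Log2 fold change of treated over control with its standard error for each member in round and sirloin muscle, with all 8 calves in black and without treated calf 4 in orange. In sirloin muscle CDKN1C moves from 1.16 to -0.08, NNAT from 0.47 to -0.45 and MEST from 0.15 to -0.52 when that calf is left out.

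The sirloin library of treated calf 4 was set beside the other 7 sirloin libraries in TPM. CDKN1C stood at 6.67 times their median, NNAT at 5.56, MEST at 3.27, PEG3 at 2.47 and PEG10 at 1.61 times, and all 5 were higher there than in any of the other 7. DLK1 stood at 2.37 times the median and was within the range of the others, as were MEG3 at 1.36, PLAGL1 at 1.16 and H19 at 0.840 times. GRB10, at 0.648 times the median, was lower than in any of the other 7. In the same library the adipocyte list stood at 51.1 times the median, the tendon list at 4.59, the fibroblast list at 3.00, the red blood cell list at 2.79 and the skeletal muscle list at 0.878 times. The part of those cell types in the values of the members was not tested. The round library of control calf 2, with its fibroblast list at 6.45 and its tendon list at 10.7 times the median of the other 7 round libraries, was the highest of its muscle for DLK1 at 2.55 and MEST at 2.57 times the median. In the sirloin library of that calf the fibroblast list stood at 2.39 and the tendon list at 5.62 times the median of the other 7. DLK1 was there at 2.40 and MEST at 2.28 times, both within the range of the others.

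**Figure D4:**
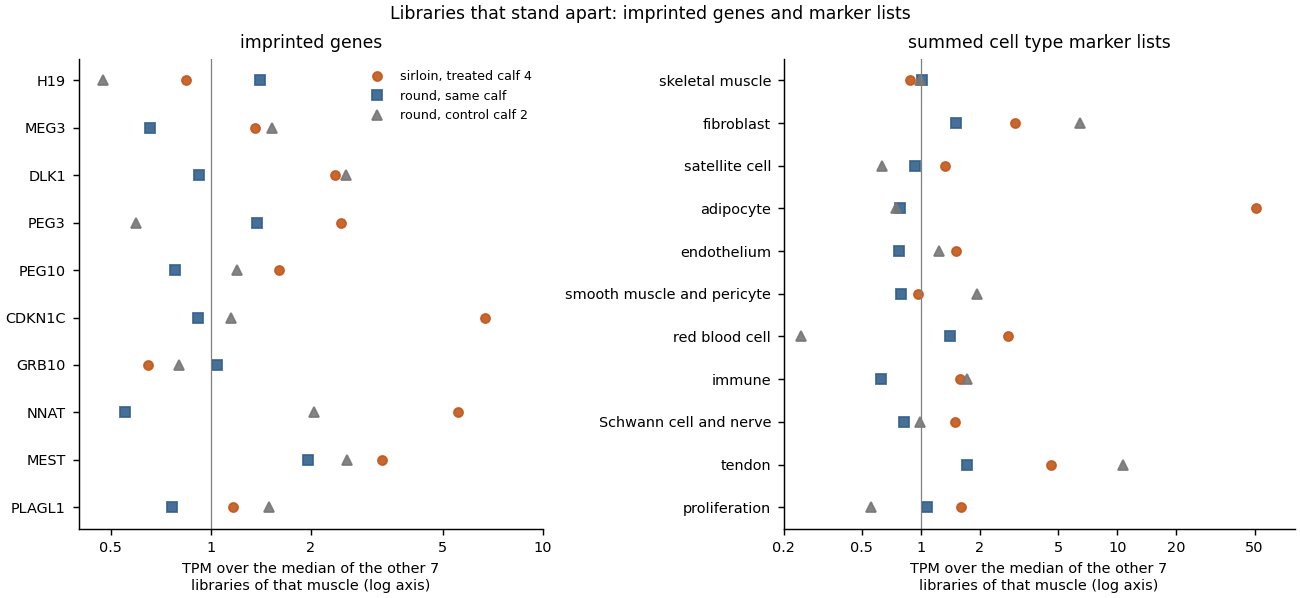
TPM in 3 single libraries divided by the median of the other 7 libraries of that muscle, on log axes, for the 10 imprinted genes and for 11 summed marker lists. The orange dots of sirloin muscle of treated calf 4 reach 6.67 for CDKN1C and 51.1 for the adipocyte list, while the blue squares of the round library of the same calf stay between 0.552 and 1.96 for the members.

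Spread between calves of a diet was described by the SD of log2 CPM, pooled over the diets. Its median over the 10 members was 0.59 in round and 0.70 in sirloin muscle, against medians of 0.44 and 0.41 over all genes with a mean of at least 1 CPM. Without treated calf 4 the median of the members was 0.59 in both muscles. It was 0.65 to 0.75 in sirloin muscle without any other single calf. PEG3 at 0.84 and H19 at 0.79 were the most variable members in round muscle, and CDKN1C at 1.09, NNAT at 1.06 and MEST at 0.92 in sirloin muscle. That order rested on single libraries: without treated calf 4 the sirloin SD was 0.47 for CDKN1C, 0.70 for NNAT and 0.70 for MEST, and DLK1 at 0.89 and H19 at 0.82 were the highest. Without control calf 4 the SD of H19 was 0.36 in round and 0.49 in sirloin muscle. PEG10 in round muscle had an SD of 0.14, and 98.8% of all genes had a larger one. In sirloin muscle the SD of PEG10 was 0.40, close to the median of all genes.

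The muscles of the same calves were then compared, with positive log2 values for higher expression in round muscle. Unless a block is named, differences and SE come from the fit that treated both libraries of a calf as independent. H19 was higher in sirloin muscle in 7 of 8 calves, with the exception of treated calf 2, and the sirloin value was 0.628 to 2.84 times the round value with a median of 1.92. The log2 difference of H19 was -0.71 (SE 0.36, edgeR adjusted p = 0.811), and with the calf as a block -0.74 (SE 0.19, edgeR adjusted p = 0.124). Of the 10 members 0 passed without the block, where 0.0612% of 22877 genes did (DESeq2, 0 of 10 against 0.367%), and 0 of 10 with the block, where 0.476% did. At an unadjusted p under 0.05 they were 0 of 10 against 6.33% of genes without the block, and 2 of 10, H19 and MEST, against 11.2% with it. In 0 of 10 members was the same muscle higher in all 8 calves, against 2.5% of genes. IGF2, the growth factor gene next to H19, measured lower in round muscle too, with a log2 difference of -0.49 (SE 0.20, edgeR adjusted p = 0.756).

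MEST was higher in round muscle in 6 of 8 calves, at 0.24 (SE 0.37), and 0.33 (SE 0.14, adjusted p = 0.430) with the calf as a block. DLK1 was higher in round muscle in 6 of 8 calves although its fitted difference was 0.01 (SE 0.33). MEG3 and GRB10 were higher in sirloin muscle in 6 of 8 calves each, at -0.24 (SE 0.24) and -0.18 (SE 0.25). CDKN1C, NNAT, PEG3 and PLAGL1 were each higher in round muscle in 4 of 8 calves, and PEG10 in 5 of 8 at 0.21 (SE 0.16). The fitted differences of CDKN1C and NNAT, -0.58 (SE 0.37) and -0.37 (SE 0.41), became 0.05 (SE 0.22) and 0.20 (SE 0.34) without treated calf 4. With each calf left out in turn, H19 stayed between -0.89 and -0.57 and MEST between 0.18 and 0.38. GRB10 was at -0.03 without treated calf 2 and MEG3 at -0.11 without control calf 1, whereas DLK1, PEG3 and PLAGL1 took both signs, between -0.26 and 0.16.

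Whether the diet difference itself depended on the muscle was tested as an interaction. Of the 10 members 0 passed, as did 0 of 22877 genes (0.0%), with 637 genes (2.78%) and 0 members at an unadjusted p under 0.05 (edgeR), while DESeq2 also called 0 genes. With the calf as a block 0 of 10 members passed against 0.00437% of genes, and 1 of 10, H19 at 0.82 (SE 0.38), had an unadjusted p under 0.05 against 3.78%. H19 had a diet difference larger by 0.76 (SE 0.72) in round than in sirloin muscle on the log2 scale, and by 0.41 without treated calf 2 and 1.04 without treated calf 3. CDKN1C had a coefficient of -1.17 (SE 0.74), which was 0.09 (SE 0.44) without treated calf 4 and -1.57 without treated calf 1. When the counts of both muscles were added up for each calf, 0 of 10 members passed for diet, against 0.00437% of 22877 genes (DESeq2, 0 of 10 against 0.162%), and 0 of 10 at an unadjusted p under 0.05 against 3.85%. PEG3 had the smallest p-value there too, with a log2 difference of 0.73 (SE 0.40, edgeR adjusted p = 0.933), followed by CDKN1C at 0.78 (SE 0.49), which was -0.04 (SE 0.29) without treated calf 4. Without treated calf 2 the summed difference of PEG3 was 0.43 (SE 0.40).

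Agreement of both muscles of a calf was measured for each member, and differences between members were not tested. MEST had a Pearson r of 0.888 between the round and sirloin log2 CPM of the 8 calves (two-sided exact permutation test over all pairings, p = 0.00213, adjusted p over all genes = 0.0714), and PEG3 had an r of 0.859 (exact permutation p = 0.00769, adjusted p = 0.0982). DLK1 followed at 0.732 (exact permutation p = 0.0362, adjusted p = 0.177). Of all genes, 5.43% had an r at least as high as MEST, 8.21% as PEG3 and 22.3% as DLK1. Spearman's rho was 0.810 for MEST (exact permutation p = 0.0218), 0.929 for PEG3 (exact permutation p = 0.00223) and 0.762 for DLK1 (exact permutation p = 0.0368). MEG3 at 0.621, GRB10 at 0.567 and H19 at 0.552 lay a little above the median r of 0.487 of all 20576 genes, and CDKN1C at 0.334 and PLAGL1 at 0.243 below it. PEG10 at -0.410 and NNAT at -0.221 were negative.

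After adjustment 0 of 10 members passed, where 165 of 20576 genes (0.802%) did, and at an unadjusted p under 0.05 the members were 3 of 10 against 24.5% of all genes. Without the 2 calves farthest from the round median, r was 0.688 for MEST, 0.651 for PEG3, 0.614 for DLK1, 0.675 for GRB10 and 0.189 for MEG3. In that setting r was -0.529 for H19, 0.0464 for CDKN1C and -0.118 for PLAGL1, and PEG10 and NNAT turned positive at 0.589 and 0.679. Leaving out these calves narrows the range of round values, and the median r of all genes fell too, from 0.487 to 0.375. Of all genes, 22.2% then had an r at least as high as MEST, 25.7% as PEG3 and 95.2% as H19. With 1 calf left out at a time r lay between 0.869 and 0.917 for MEST, 0.783 and 0.944 for PEG3 and 0.608 and 0.857 for DLK1. The other members moved more, from 0.0345 to 0.811 for H19, 0.314 to 0.746 for MEG3, 0.391 to 0.754 for GRB10, 0.0257 to 0.798 for CDKN1C, -0.0551 to 0.497 for PLAGL1, -0.643 to 0.0504 for PEG10 and -0.537 to 0.198 for NNAT.

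**Figure D5:**
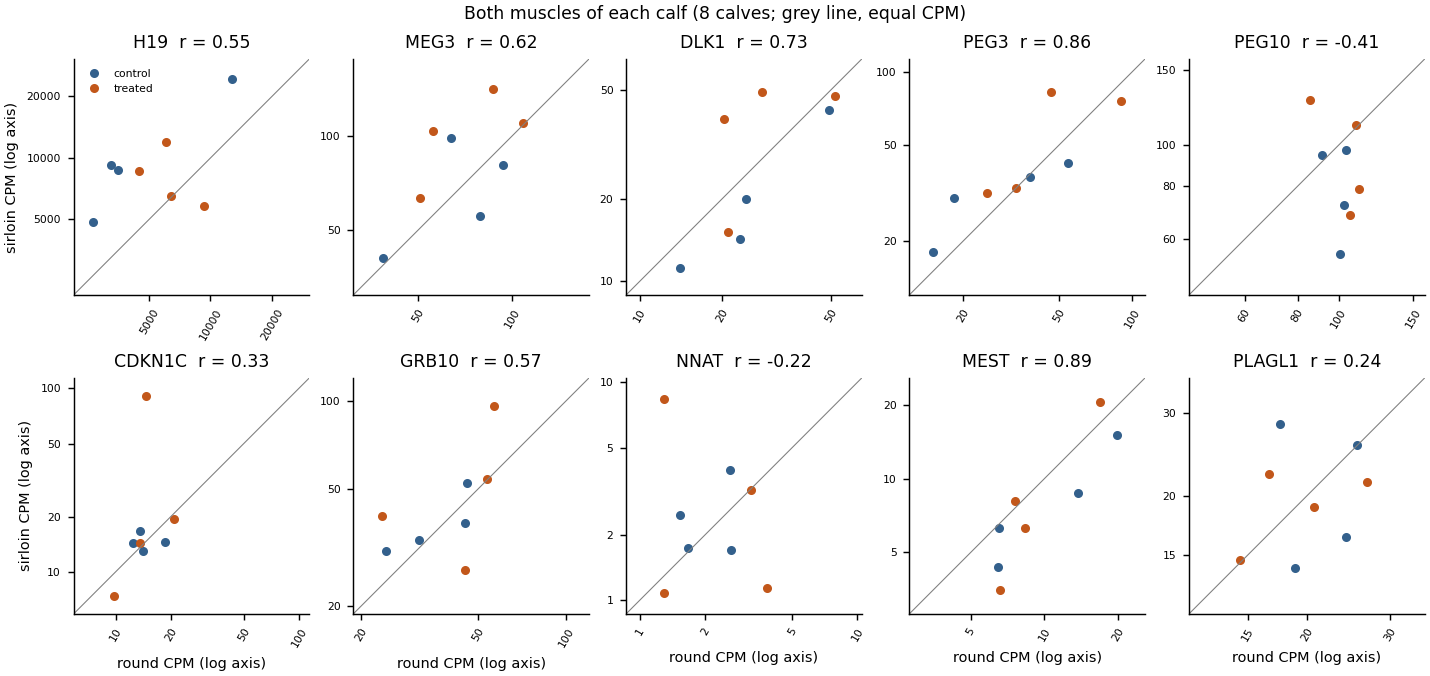
Sirloin against round CPM of each imprinted gene for the 8 calves on log axes, with control calves in blue, treated calves in orange and a grey line of equal CPM. Dots of MEST (r = 0.888) and PEG3 (r = 0.859) rise along the line, dots of H19 lie mostly above it, and the dots of CDKN1C and NNAT in the upper left are treated calf 4.

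Pairs of neighbouring genes of a shared imprinted domain were compared over calves in each muscle, 12 relations in all, chosen after the files had been read. Diet means were not removed, and no share over all genes was taken for these relations. MEG3 and MEG8, a pair of maternally expressed RNAs of the DLK1 domain, rose and fell together in sirloin muscle (r = 0.890, exact permutation p = 0.00327, adjusted p over the 12 = 0.0393; Spearman's rho 0.833, adjusted p = 0.168, exact permutation). In round muscle r was 0.735 (exact permutation p = 0.0353, adjusted p = 0.212), and without the 2 calves farthest from the median r was 0.650 in sirloin and 0.629 in round muscle. H19 and IGF2 had an r of 0.458 in round and 0.427 in sirloin muscle, and MEG3 and DLK1, transcribed from opposite parental copies, 0.221 and 0.110, each with an adjusted p of 0.461 or more (exact permutation). PEG10 with SGCE, NNAT with BLCAP and MEST with COPG2 did not pass either, with r between -0.182 and 0.700. NNAT with BLCAP had an r of 0.639 in round and -0.106 in sirloin muscle, and the latter was 0.864 without treated calf 4 and 0.779 without the 2 calves farthest from the median. MEST with COPG2 went from 0.355 to -0.0172 in sirloin muscle without treated calf 4. Without the 2 farthest calves H19 with IGF2 was at 0.795 in round and -0.0779 in sirloin muscle, and MEG3 with DLK1 was negative in both, at -0.297 and -0.314.

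Across all 16 libraries, with the mean of each muscle taken away, r between members ran from -0.526 for GRB10 with NNAT to 0.706 for MEG3 with PLAGL1, and 31 of 45 pairs were positive. Of 11384 genes outside the members, the share with a positive r ran from 43.8% with PEG3 to 53.1% with NNAT. CDKN1C and NNAT had an r of 0.624, which was 0.245 without the sirloin library of treated calf 4. The libraries are pairs from 8 calves, so these values are a description. On the same measure, the gene most like each member among 11384 genes was TNKS2 for H19 (r = 0.883), TTC28 for MEG3 (0.832), FGFR4, a fibroblast growth factor receptor, for DLK1 (0.925) and PTPRS, a receptor phosphatase, for PEG3 (0.944). It was CNN2 for PEG10 (0.832), RASL11B for CDKN1C (0.920, and 0.787 without that library), SLC25A43 for GRB10 (0.802), COX8A for NNAT (0.897), C1QTNF3 for MEST (0.915) and TENM3 for PLAGL1 (0.870). Without that library the most alike gene became IL9R for GRB10 and KBTBD8 for PLAGL1, and stayed the same for the other 8.

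Genes around the members were read from the same fits: 23 tested neighbours in their imprinted domains, 17 other imprinted genes and 9 growth receptors and ligands. In all 3 lists 0 genes passed the adjusted threshold for diet in either muscle, for muscle, for the interaction and for the summed counts. IGF2, the fetal insulin-like growth factor, averaged 744 CPM ± 219 (SD, n = 4) in round muscle of the controls and 896 ± 254 in the treated calves, and 1119 ± 412 and 1167 ± 102 CPM in sirloin muscle, with log2 differences of 0.29 (SE 0.30) and 0.06 (SE 0.27). IGF2R, the imprinted receptor that clears IGF2, differed by 0.12 (SE 0.33) in round and -0.32 (SE 0.27) in sirloin muscle. The signalling receptors IGF1R and INSR, on which GRB10 acts, differed by -0.22 (SE 0.48) and -0.51 (SE 0.47) in round and by -0.17 (SE 0.54) and -0.38 (SE 0.45) in sirloin muscle. Without treated calf 4 IGF1R was at 0.01 (SE 0.44) in round and 0.03 (SE 0.56) in sirloin muscle, INSR at -0.33 (SE 0.49) in round and IGF2R at 0.05 (SE 0.37) in round muscle.

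The smallest p-values of the neighbours in round muscle were those of TFPI2, a protease inhibitor of the PEG10 domain, at -0.98 (SE 0.33, edgeR adjusted p = 0.864), and of USP29, which had at most 2 counts in any library and 0 in 14 of 16. In sirloin muscle they were those of SGCE at 0.56 (SE 0.28) and COPG2 at 0.35 (SE 0.21). Among other imprinted genes L3MBTL1, a chromatin protein, differed by 1.27 (SE 0.53, edgeR adjusted p = 0.864) in round and 1.13 (SE 0.43, edgeR adjusted p = 0.876) in sirloin muscle. It rested on 64 to 480 counts per library, and its round difference was 0.91 (SE 0.55) without treated calf 4. MKRN3 was at -0.90 (SE 0.70) in round and GPR1 at 1.05 (SE 0.62) in sirloin muscle. Of the receptors and ligands, IRS1, the docking protein of the insulin and IGF1 receptors, was at -0.57 (SE 0.25) in round and -0.72 (SE 0.39) in sirloin muscle, and IGFBP4 at -0.88 (SE 0.75) in round muscle. IGF1 was at 1.45 (SE 0.67) in sirloin muscle, and at 0.23 (SE 0.41) without treated calf 4, where GPR1 was at 0.27 (SE 0.55). Without that calf MKRN3 was at -1.60 (SE 0.73) in round and -1.49 (SE 0.64) in sirloin muscle, on 4 to 50 counts per library.

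Between muscles, the neighbours with the smallest p-values were TFPI2 at 0.51 (SE 0.20) and IGF2. The other imprinted genes gave DIRAS3 at 2.08 (SE 0.86), on 0 to 179 counts per library, and ZDBF2 at -1.46 (SE 0.68), on 0 to 44 counts, and the receptors and ligands IGFBP4 at 0.78 (SE 0.51) and IRS1 at -0.24 (SE 0.24). For the interaction they were TFPI2 at -0.77 (SE 0.40), USP29, GNAS at 0.39 (SE 0.28), SLC38A4 at 1.15 (SE 0.90), IGF1 at -1.23 (SE 0.97) and IGFBP3 at -0.73 (SE 0.63). On the summed counts they were TFPI2 at -0.67 (SE 0.24), ASB4 at -0.50 (SE 0.38), L3MBTL1 at 1.15 (SE 0.44), MKRN3 at -0.80 (SE 0.59), IRS1 at -0.67 (SE 0.29) and IGF1 at 0.92 (SE 0.63). With all 8 calves these have adjusted p-values of 0.741 or more (edgeR). Without treated calf 4 the interaction was 0.70 (SE 0.90) for SLC38A4 and -0.45 (SE 0.78) for IGF1, and the summed difference was -1.56 (SE 0.54) for MKRN3 and -0.02 (SE 0.48) for IGF1.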

How the data were processed

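Round and sirloin muscle libraries of 8 calves were analysed as 16 samples. The authors deposited read counts per gene without normalization and normalized values that sum to about 1000000 per library and were used as the authors' TPM. The study's methods give Trimmomatic, SortMeRNA, HISAT2, Bowtie2, StringTie and a stranded library kit with rRNA and globin depletion. By contrast, the submitters' processing notes name FastQC, Trimmomatic, STAR, featureCounts, DESeq2 and build ARS-UCD1.2, and the labels a poly(A) kit. The conflict was not settled. Tables of the authors' own fold changes and p-values were not used. Of 34109 gene IDs, 30762 (90.2%) were paired with symbols through a RefSeq gene table of another assembly, from which names and neighbours only were taken.

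Diet was tested in each muscle, muscle and interaction in 16 libraries, and diet on counts summed per calf, with edgeR 4.0.16 (glmQLFit, glmQLFTest, TMM) in R 4.3.3 on all genes with at least 1 count, two-sided, with Benjamini-Hochberg adjustment over all genes tested. SE is the log2 fold change divided by the square root of F. CPM used TMM over 16 libraries, and log2 CPM a prior count of 2. Correlations between muscles used exact permutation over 40320 pairings. Alternatives were DESeq2 1.42.0, limma 3.58.1 (voom, or log2(TPM + 0.1)), RLE and upper-quartile factors, filterByExpr, a block and leaving out each calf. The steps were tested on simulated data.

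The labels give each calf the same number in both muscles. After group means were removed, the round library of each of the 8 calves correlated best with its own sirloin library, at 0.311 to 0.765. Its highest correlation with the sirloin library of another calf was 0.0944 to 0.456, depending on the calf. Treated calf 4 had the weakest pair, 0.311 against 0.173. Between the diets a shared number marks different animals. P-values of the diet tests set the difference against the spread between the 4 calves of a diet. The muscle and interaction tests without a block treated both libraries of a calf as independent.

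The members and the gene lists were chosen with earlier results of these data known. All members are named, with the 2 context genes of each list with the smallest p-value per comparison, IGF2, IGF2R, IGF1R, INSR and the gene most like each member. MIMT1, KCNQ1OT1, HYMAI and PAX7 were not matched. Marker lists of 11 cell types or states were summed in TPM.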

Additional observations from a re-analysis of the deposited data

Results flagged for a closer look

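Of 40 groups of 4 libraries, 2 had a member's value set apart from the other 3 beyond the 95% limit of Dixon's test, where chance gives about 1 in 20. H19 in round muscle of control calf 4, at 12710.1 CPM, lay 0.913 of the range of its group away from the nearest other control calf. The sirloin library of the same calf was also the highest for H19. CDKN1C in sirloin muscle of treated calf 4, at 91.0 CPM, lay 0.855 of the range of its group away from the nearest other treated calf, and this is the library with 3962 TPM of adipocyte genes. The part of those cells in the value was not tested.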

How the results depend on the processing

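Under all alternatives 0 of 10 members passed the adjusted threshold in any comparison, and the lowest adjusted p of a member was 0.0890 (H19 between muscles, with the calf as a replicate block and without treated calf 4, a setting chosen after seeing the data). Of 770 fitted differences of members under alternatives, 64 changed sign, all without a call, as did 8 of 130 correlations between muscles. The number of genes called over the whole table moved more. For diet in round muscle it was 4, with 45 by DESeq2, 1 by limma-voom, 2 with the replicate block and 0 to 3 without single calves. In sirloin muscle it was 2, with 13 by DESeq2, 0 by limma-voom, 0 with the replicate block, 1 on log2(TPM + 0.1) and 0 to 1 without single calves. Between muscles it was 14, with 84 by DESeq2, 109 with the calf as a block and 322 with that block and without treated calf 4. The interaction gave 0, and 1 with the calf as a block, also without treated calf 4. Summed counts gave 1, with 37 by DESeq2, 0 by limma-voom, 0 with the replicate block and 0 to 2 without single calves. Correlations between muscles gave 165, with 155 on RLE factors and 113 on log2(TPM + 0.1). They gave 0 by Spearman's rho, 0 with diet means removed, 0 without single calves and 0 without the 2 calves farthest from the median. Fewer calves allow fewer pairings, 5040 for 7 calves. With diet means removed calves were exchanged within a diet only, which allowed 576 pairings and a smallest exact permutation p of 0.00174. In these settings few pairings make the adjusted threshold hard to reach, so that 0 does not show that the agreement was lost. Spearman's rho used all 40320 pairings, and the reason for its 0 was not tested. The median r of all genes was 0.508 with diet means removed, against 0.487 in the main setting. The other causes were not tested. For diet in each muscle and on summed counts, the block was on replicate numbers, which share no calf across the diets. In each muscle 1 of 4 control calves correlated best with its own number, so that block pairs nothing known. Between muscles and for the interaction the block was the calf itself. On log2(TPM + 0.1) the median of all genes for diet was 0.11 in round and 0.18 in sirloin muscle, and that of the members 0.23 and 0.46. On that scale 62.4% of all genes in round and 72.2% in sirloin muscle were above 0.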

Other observations

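Levels of the imprinted genes outside the panel spanned a wide range. GNAS, which encodes a G protein subunit, averaged 1250.3 TPM over the 16 libraries, and TFPI2 averaged 27.6 and COPG2 10.4 TPM. SLC38A4, an amino acid transporter, averaged 7.32 TPM and ran from 124 to 3478 counts per library. At the low end L3MBTL1 averaged 0.874, MKRN3 0.0600 and ZDBF2 0.0349 TPM, and ZDBF2 was at 0 counts in 2 of 16 libraries.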
